A study of Mus musculus with 18 samples.

Results

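Ptprz1 and its ligands Ptn and Mdk were 3 of the 14521 named genes measured by mRNA sequencing during ultraviolet-driven skin carcinogenesis in mice. Ptprz1 was chosen by its measured rise in squamous carcinoma over irradiated skin in these libraries, so its values are given as a description and carry no test. Ptn and Mdk were added by name, as the soluble ligands of Ptprz1, with earlier results of these data known. The 18 libraries came from 6 female littermates (mice 2, 3, 7, 8, 9 and 10) of SKH-1E, an outbred hairless strain. Every mouse had received chronic solar-simulator irradiation from 3 months of age, so no group was unirradiated. From each mouse came a piece of irradiated skin without a lesion (CHR), a benign epidermal outgrowth called a papilloma (PAP) and an invasive squamous carcinoma of the skin (SCC), with n = 6 per stage. All lesions were of low or intermediate histological grade.

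Ptprz1 encodes a receptor-type protein tyrosine phosphatase whose extracellular part is decorated with chondroitin sulfate. It is best known from glia and neural progenitors. Binding of the heparin-binding growth factors pleiotrophin (Ptn) or midkine (Mdk) lowers its phosphatase activity, so that substrates such as beta-catenin stay phosphorylated on tyrosine. Pleiotrophin and midkine form a family of their own, and both are also bound by syndecans, integrins and other surface proteins.

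In GRCm38 with the GENCODE M21 annotation, Ptprz1 (ENSMUSG00000068748.7) lies on the forward strand of chromosome 6 from 22875502 to 23052916 and has 6 annotated transcripts. Ptn (ENSMUSG00000029838.11) lies on the reverse strand of the same chromosome from 36714929 to 36810220. Mdk (ENSMUSG00000027239.14) is a compact gene on the reverse strand of chromosome 2 from 91929805 to 91932297. No other annotated gene overlapped any of them. RefSeq's promoter table for GRCm38.p6 held 2 of the 3 genes, Ptprz1 and Ptn. The 250 bases before the start of Ptprz1 are printed because the level of this gene separated irradiated skin from both lesions. The window is chr6:22875252-22875501 on the forward strand, and capitals mark every match to the motifs searched.
Ptprz1 promoter: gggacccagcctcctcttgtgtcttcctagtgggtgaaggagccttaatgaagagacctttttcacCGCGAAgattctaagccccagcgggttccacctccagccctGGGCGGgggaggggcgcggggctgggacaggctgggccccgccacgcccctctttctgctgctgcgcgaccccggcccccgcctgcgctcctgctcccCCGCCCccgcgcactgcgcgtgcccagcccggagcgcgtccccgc
The window had a GC content of 71.6%, above that of 92.7% of the 32851 promoters of the same length. It held 2 matches to the GC box GGGCGG on either strand, which 32.7% of promoters hold at least once. It also held 1 match to the E2f motif TTCGCG, on the reverse strand, which 3.32% of promoters hold. There was no match to the AP-1 motif TGANTCA (in 6.75% of promoters), the Ets core CCGGAA (12.0%) or the Lef1/Tcf motif CTTTGA (13.8%). No matches overlapped each other in this window. The Ptn window had a GC content of 52.0% and held none of these letters.

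Depth was 15.4 to 21.0 M recovered reads per library, and the levels below are these reads divided by the size factor of the library (normalised reads). The smallest count behind any value of the 3 genes was 26 reads, for Mdk, so counting error is largest for that gene. The libraries were of whole tissue pieces, in which fewer cells of a type and less RNA per cell cannot be told apart. Keratinocyte markers were abundant in all 18 libraries, with summed levels from 239867 to 1257620 normalised reads over 10 genes. Markers of skeletal muscle, which forms a sheet beneath mouse skin, summed to between 367646 and 556572 in CHR, between 276 and 27790 in PAP and between 266 and 184893 in SCC. The lowest SCC library for both the muscle and the dermal fibroblast markers was that of mouse 10.

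Ptprz1 was the member with the large difference between stages. In CHR it ranged from 135 in mouse 10 to 850 in mouse 3, with a median of 332 normalised reads. In PAP it ranged from 2015 in mouse 9 to 10413 in mouse 10, with a median of 3733. In SCC it ranged from 2425 in mouse 10 to 7116 in mouse 9, with a median of 4310.5. The highest CHR library therefore stayed below the lowest PAP and the lowest SCC library, whereas the PAP and SCC libraries were interleaved. Group means were 387 ± 271 in CHR, 4321 ± 3114 in PAP and 4628 ± 1932 in SCC (SD, n = 6).

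**Figure D1:**
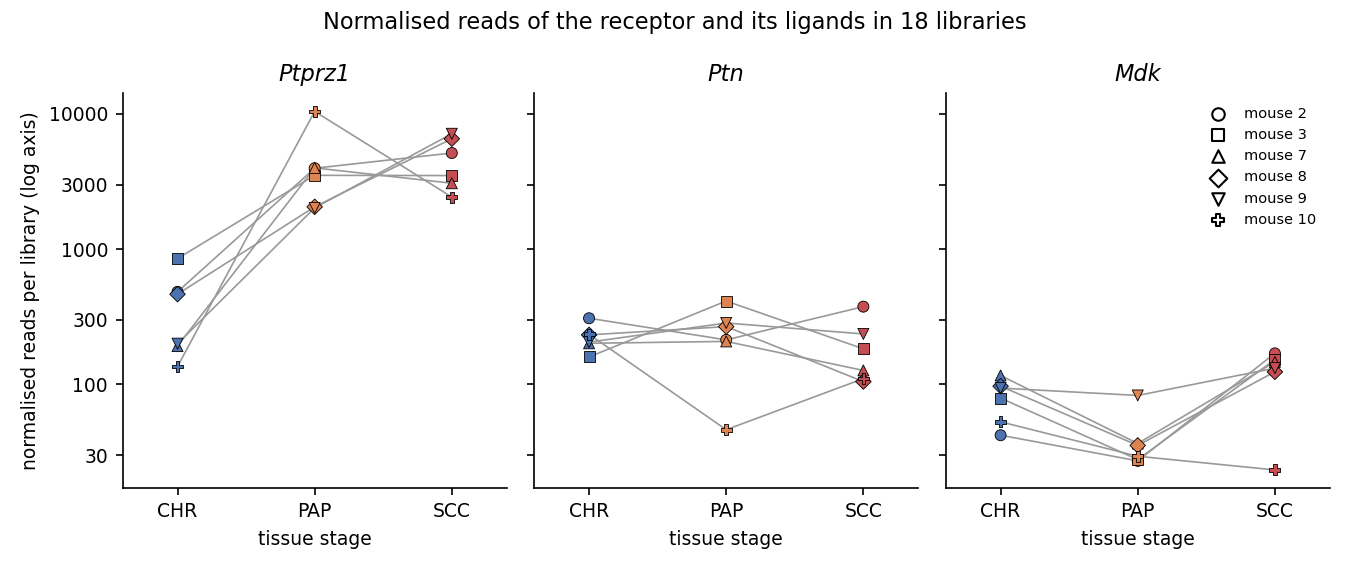
Normalised reads of Ptprz1, Ptn and Mdk in each of the 18 libraries (log axis, shared by the panels), with 1 marker shape per mouse and grey lines joining the 3 stages of a mouse. Ptprz1 lies between 135 and 850 in CHR and at 2015 or above in both lesions; Mdk dips in PAP in all 6 mice, and Ptn shows no common direction.

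Within mice, Ptprz1 was higher in PAP than in CHR in 6 of 6, by 4.12-fold in mouse 3, 4.42-fold in mouse 8, 8.20-fold in mouse 2, 10.1-fold in mouse 9, 20.8-fold in mouse 7 and 76.9-fold in mouse 10. The within-mouse log2 ratio was 3.53 ± 1.59 (SD, n = 6), a geometric mean of 11.6-fold. Mouse 10 set the upper end in both ways, since it had the lowest CHR and the highest PAP level. Of all genes, 14.4% had every PAP library above every CHR library, and Ptprz1 was among them by its choice. On the log2(value + 1) scale of the deposited table, the difference was 3.22 ± 0.41 (SE), the 11th highest of the 14521 genes, and 2.73 without mouse 10.

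From PAP to SCC the mice went different ways. Ptprz1 was higher in SCC by 3.53-fold in mouse 9, 3.19-fold in mouse 8 and 1.30-fold in mouse 2. It was lower in SCC by 4.29-fold in mouse 10 and by 1.30-fold in mouse 7, and the levels of mouse 3 were almost level at 3508 in PAP and 3493 in SCC. The within-mouse log2 ratio was 0.23 ± 1.45 (SD, n = 6), so its spread exceeded its mean. The fitted difference was 0.22 on the log2(value + 1) scale, and leaving out mouse 9 gave −0.09, leaving out mouse 10 0.68. The choice of the gene favours high SCC values, so this difference is a description too and carries no test. The groups overlapped, as they did for most genes, and 0.255% of genes had every SCC library above every PAP library.

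In SCC against CHR, the comparison that chose the gene, Ptprz1 was higher in 6 of 6 mice, from 4.11-fold in mouse 3 to 35.6-fold in mouse 9, with a geometric mean of 13.6-fold (log2 ratio 3.76 ± 1.03, SD). The share of genes with every SCC library above every CHR library was 8.49%. The fitted difference of 3.44 ± 0.41 (SE) was the 5th highest of all genes and lay between 3.19 and 3.74 when any 1 mouse was left out. The 3 mice with the lowest CHR levels (7, 9 and 10) had the largest within-mouse ratios, and mouse 3, with the highest CHR level, had the smallest. The coefficient of variation of the levels was 69.9% in CHR and 41.8% in SCC.

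Ptn, which encodes pleiotrophin, did not pass the test in any comparison. Its level ranged from 159 to 308 normalised reads in CHR (median 218), from 46.1 to 413 in PAP (median 240.02) and from 105 to 375 in SCC (median 155). The groups overlapped throughout, and the single low PAP value belonged to mouse 10, which had the highest Ptprz1 of all libraries. Ptn was higher in 4 of 6 mice in PAP against CHR, in 2 of 6 in SCC against PAP and in 3 of 6 in SCC against CHR. The fitted log2 differences were −0.04, −0.21 and −0.25 (SE 0.29 each), with adjusted p = 0.917, 0.717 and 0.520 by limma. Their 95% intervals ran from −0.65 to 0.57, from −0.82 to 0.39 and from −0.86 to 0.35, so changes of moderate size in either direction were not excluded at this spread.

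Mdk, which encodes midkine, was lowest in PAP and highest in SCC. It ranged from 42.0 to 116 normalised reads in CHR (median 86.4). In PAP 5 libraries lay between 27.2 and 36.5, and mouse 9 stood apart at 82.7. In SCC 5 libraries lay between 124 and 169, and mouse 10 stood apart at 23.3, the lowest Mdk value of all libraries. Apart from that SCC library of mouse 10, every SCC library was above every PAP and every CHR library. Group means were 80.1 ± 28.2 in CHR, 39.8 ± 21.4 in PAP and 124 ± 52.1 in SCC (SD, n = 6).

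Mdk was lower in PAP than in CHR in 6 of 6 mice, by 1.13-fold in mouse 9 to 3.18-fold in mouse 7. The log2 difference of −0.52 ± 0.22 (SE) missed the threshold with an adjusted p of 0.0606 by limma. With the mouse as a block the adjusted p was 0.0372, and without mouse 10 it was 0.0129, so the call depended on these settings. Between PAP and CHR, 22.8% of all genes passed the test as higher and 28.7% as lower.

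Mdk rose from PAP to SCC, where 4.99% of genes were called higher and 0.592% lower. The log2 difference was 0.86 ± 0.22 (SE), with an adjusted p of 0.0388 by limma and a higher level in 5 of 6 mice. The within-mouse ratios were 6.24-fold in mouse 2, 5.49-fold in mouse 3, 4.01-fold in mouse 7, 3.50-fold in mouse 8 and 1.59-fold in mouse 9, whereas mouse 10 was 1.26-fold lower. Without mouse 2, 3, 7, 8 or 9 the call was lost, with adjusted p values of 0.0903, 0.161, 0.204, 0.203 and 0.0505, and without mouse 10 it was 0.000759. The 810 calls between the lesions also turned on single mice, since no gene (0) passed limma without mouse 3, 7 or 8, where 2691, 2056 and 2220 genes had an unadjusted p under 0.05. In SCC against CHR, Mdk was higher in 5 of 6 mice with a log2 difference of 0.34 ± 0.22 (SE) and an adjusted p of 0.251, or 0.51 with an adjusted p of 0.0278 without mouse 10. In that comparison 15.1% of genes were called higher and 21.4% lower.

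Levels of different genes were compared as reads per kilobase of exon and M reads (RPKM), with all annotated exons of a gene counted once. In CHR the order was Ptn at 3.59 ± 0.76, Mdk at 3.35 ± 1.20 and Ptprz1 at 1.50 ± 1.04 (SD, n = 6), and Ptn and Mdk did not differ beyond their spread. In PAP it was Ptprz1 at 16.8 ± 11.8, Ptn at 3.88 ± 2.04 and Mdk at 1.65 ± 0.82. In SCC it was Ptprz1 at 18.7 ± 7.78, Mdk at 5.43 ± 2.24 and Ptn at 3.15 ± 1.63. By group means, the receptor thus moved from the lowest to the highest of the 3 transcripts in both lesions, as its choice favours. The ligands changed places with ranges that overlapped in every stage. In CHR the receptor was not the lowest in mouse 2 (1.84, with Mdk at 1.72) or mouse 3 (3.28, with Ptn at 2.55). With the longest annotated transcript as the length, the order of the group means was the same, and Ptprz1 reached 2.64, 29.6 and 33.1. By that length Ptprz1 was the highest of the 3 in the CHR library of mouse 3 (5.80, with Ptn at 3.42 and Mdk at 4.13).

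**Figure D2:**
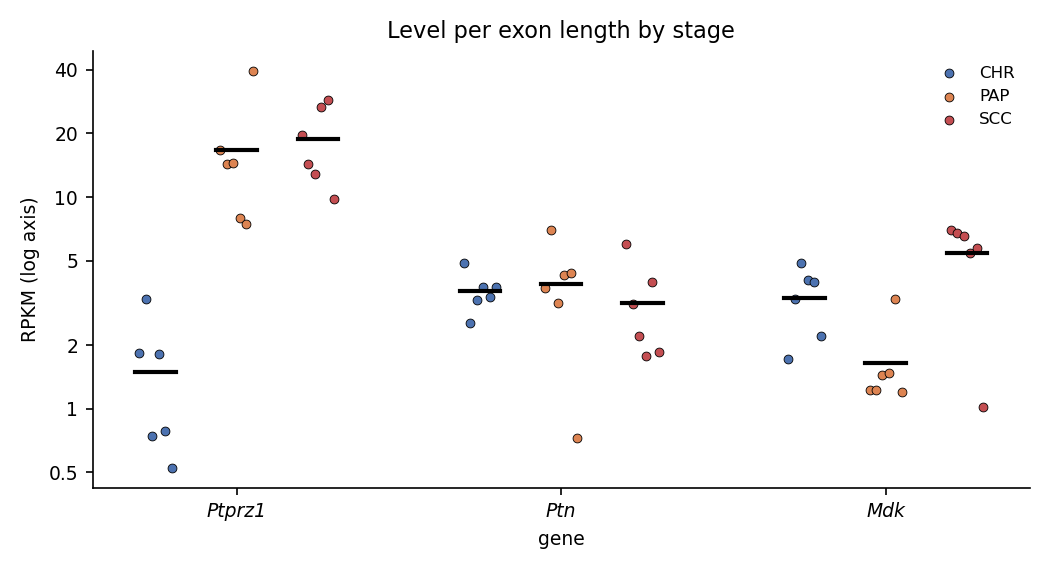
RPKM of each gene by stage (log axis), with 1 point per library and a black line at the mean of 6 libraries. Ptprz1 lies between 0.525 and 3.28 in CHR and at 7.50 or above in PAP and SCC.

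Expressed as a ratio, the Ptprz1 RPKM per summed RPKM of its ligands was 0.0879 to 0.562 in CHR, 0.975 to 20.5 in PAP and 1.46 to 3.70 in SCC, with medians of 0.169, 2.46 and 2.24. The ratio did not overlap between CHR and either lesion, and it inherits this from the choice of Ptprz1. The highest value, in the papilloma of mouse 10, combined the highest Ptprz1 with the lowest Ptn. The balance between the ligands, as Ptn RPKM per Mdk RPKM, had medians of 0.883 in CHR, 2.55 in PAP and 0.577 in SCC, with ranges of 0.667 to 2.83, 0.606 to 5.74 and 0.327 to 1.82 that overlapped between all stages.

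Both ligands are also bound by other surface proteins, and 15 of 16 such receptors were measured. In PAP against CHR, 5 were called higher and 6 lower, with a median log2 difference of 0.15 beside 0.00 for all genes. Over all genes 22.8% passed as higher and 28.7% as lower. Itga6, the laminin-binding integrin subunit of basal keratinocytes, rose by 1.96 ± 0.23 (SE), from 6125 ± 1864 to 24125 ± 7015 normalised reads (SD, n = 6). Ncl, the nucleolar protein nucleolin, which also binds both factors at the cell surface, rose by 0.82 ± 0.16, and its CHR libraries were tightly grouped between 3813 and 4085. Nrp1, a co-receptor for semaphorins and vascular growth factors, fell by 2.37 on the log2 scale, from 4218 ± 942 to 801 ± 310. Itga4, an integrin subunit of leukocytes, fell by 2.21, from 1282 ± 304 to 234 ± 98.4. Adjusted p values of these 4 genes were 2.14e-06, 0.000457, 1.29e-05 and 5.77e-06 by limma, and each moved the same way in 6 of 6 mice.

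Between the lesions, 2 of the 15 receptors were called higher in SCC and 0 lower. The shares over all genes were 4.99% and 0.592%. The receptors were Nrp1, which rose by 1.16 ± 0.33 on the log2 scale, and Itga4, which rose from 234 ± 98.4 to 542 ± 261 normalised reads, with an adjusted p of 0.0465 each by limma and a higher level in 6 of 6 mice. Both calls were lost without mouse 2, 3, 7, 8 or 9. In SCC against CHR, 3 were called higher and 5 lower, where 15.1% and 21.4% of all genes were, with a median of 0.21 beside −0.02 for all genes. Without mouse 3, 9 or 10, 3 in place of 5 receptors were called lower. Itga6 and Ncl were higher by 1.45 ± 0.23 and 0.90 ± 0.16, and Nrp1 and Itga4 were lower by 1.21 each (SE 0.33 and 0.28). Alk, the tyrosine kinase receptor reported for both factors, had at most 1.95 normalised reads in CHR and 15.2 in PAP, reached 78.8 in 1 SCC library and was not called in any comparison (adjusted p = 0.300, 0.730 and 0.129 by limma).

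**Figure D3:**
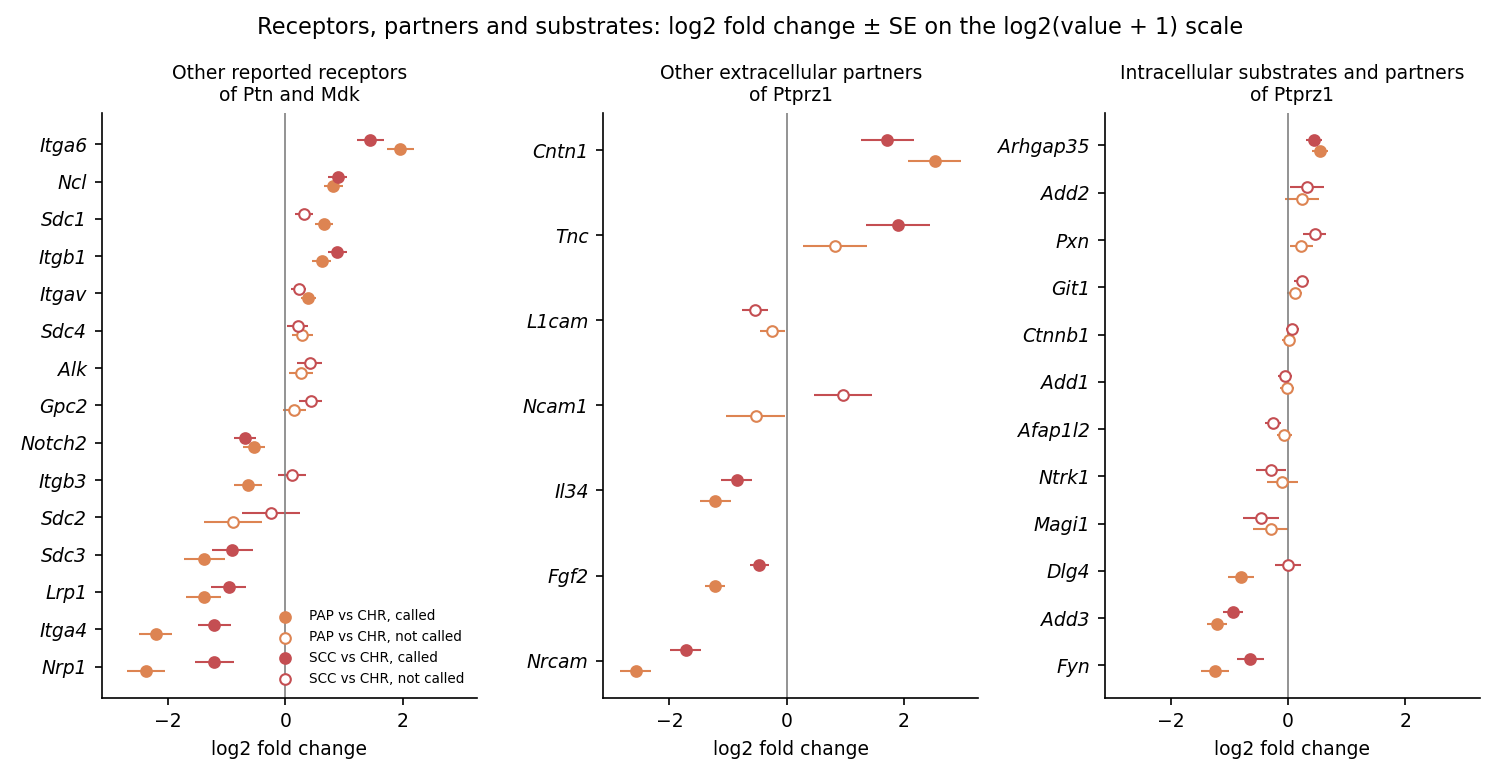
Log2 fold change ± SE on the log2(value + 1) scale of the other receptors of Ptn and Mdk, the other extracellular partners of Ptprz1 and its intracellular substrates, in PAP (orange) and SCC (red) against CHR; filled points passed the test. Cntn1 and Itga6 lie at the upper end in PAP, and Nrcam and Nrp1 at the lower end.

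Ptprz1 also binds cell adhesion and matrix proteins, and 7 of 8 of these partners were measured. Cntn1, contactin-1, is a membrane-anchored adhesion protein that binds the extracellular part of Ptprz1. Its level ranged from 212 to 845 normalised reads in CHR (median 390), from 1247 to 7593 in PAP (median 2652) and from 597 to 2891 in SCC (median 1893). Every PAP library was above every CHR library, which 14.4% of all genes also showed, and the SCC libraries overlapped with both. Cntn1 rose by 2.53 ± 0.45 (SE) in PAP against CHR (adjusted p = 0.000167 by limma, 6 of 6 mice) and by 1.72 ± 0.45 in SCC against CHR (adjusted p = 0.00674, 5 of 6 mice).

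Tnc, the matrix protein tenascin-C, was already abundant in CHR at 10594 ± 6362 normalised reads. It reached 14872 ± 2576 in PAP and 39061 ± 24066 in SCC (SD, n = 6). The log2 difference was 0.82 ± 0.55 in PAP (adjusted p = 0.224 by limma) and 1.90 ± 0.55 in SCC against CHR (adjusted p = 0.0117, 5 of 6 mice), and the latter was 1.65 with an adjusted p of 0.0541 without mouse 7. Tnc was thus called in SCC alone of the lesions, but the difference between the lesions was not called (1.08 ± 0.55, adjusted p = 0.251).

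The other partners that passed the test were lower in the lesions. Nrcam, a neuronal-type adhesion protein, had 445 ± 86.5 normalised reads in CHR, 29.6 ± 24.1 in PAP and 102 ± 74.0 in SCC, and fell by 2.57 in PAP and by 1.73 in SCC on the log2 scale (adjusted p = 6.43e-07 and 0.0001 by limma, 6 of 6 mice). Fgf2, a fibroblast growth factor that is held on proteoglycans, fell by 1.22 in PAP and by 0.46 in SCC (adjusted p = 1.14e-05 and 0.0363), with levels of 66.8, 7.05 and 36.0 in CHR, PAP and SCC. It rose between the lesions by 0.76 ± 0.17 (adjusted p = 0.0245). Il34, a cytokine that sustains Langerhans cells in the epidermis, was called lower in both lesions (−1.22 and −0.86), and the SCC call was lost without mouse 3 or 9. Of the 7 partners, 1 was called higher and 3 lower in PAP against CHR (22.8% and 28.7% of all genes), 1 higher and 0 lower in SCC against PAP (4.99% and 0.592%), and 2 higher and 3 lower in SCC against CHR (15.1% and 21.4%). The list medians were −0.53, 0.76 and −0.46, beside 0.00, −0.02 and −0.02 over all genes. Between the lesions, 3 partners were called higher with the mouse as a block, Nrcam and Ncam1 being added (adjusted p = 0.0354 and 0.0288 by limma). Without mouse 10, 4 were called higher, and without mouse 3, 7 or 8, 0. In SCC against CHR, 1 in place of 3 was called lower without mouse 3, and 1 in place of 2 higher without mouse 7.

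Of 13 intracellular substrates and partners of Ptprz1, 12 were measured, and most did not pass the test. Ctnnb1, which encodes beta-catenin, had 17204 ± 2201 normalised reads in CHR, 17309 ± 2286 in PAP and 18088 ± 1884 in SCC (SD, n = 6). Its stage means thus lay within the spread of any one stage, and a test of mRNA does not bear on phosphorylation. Arhgap35, a GTPase-activating protein, was the sole gene called higher in both lesions, by 0.54 ± 0.13 in PAP and 0.44 ± 0.13 in SCC (adjusted p = 0.00234 and 0.0147 by limma), and its SCC call was lost without mouse 10 (adjusted p = 0.0696). Fyn, a Src-family kinase, fell by 1.25 and 0.64, and Add3, an adducin of the membrane skeleton, fell by 1.21 and 0.94 (adjusted p = 0.000294, 0.0413, 1.13e-05 and 0.000315). The Fyn call in SCC was lost without mouse 3, 8 or 9. Dlg4, a scaffold that binds the tail of Ptprz1, was lower in PAP than in CHR (−0.80 ± 0.23) and higher in SCC than in PAP (0.80 ± 0.23), with adjusted p = 0.00678 and 0.0472. The latter call was lost without mouse 2, 3, 7, 8 or 9, and without mouse 10, 2 genes were called higher between the lesions. The counts were 1 higher and 3 lower in PAP against CHR (22.8% and 28.7% of all genes), 1 higher and 0 lower between the lesions (4.99% and 0.592%) and 1 higher and 2 lower in SCC against CHR (15.1% and 21.4%). The list medians of −0.04, 0.07 and −0.03 were close to those of all genes.

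The levels of the 3 genes were set beside those of cell-type markers, in ratios that were chosen after their values were seen. Summed dermal fibroblast markers (10 genes, among them Col1a1, Dcn and Pdgfra) ranged from 151030 to 340598 normalised reads in CHR, from 6820 to 188449 in PAP and from 21848 to 554982 in SCC. They were lower in PAP than in CHR in 6 of 6 mice and higher in SCC than in PAP in 5 of 6, the counts that Mdk also gave. The exceptions between the lesions were different mice. The fibroblast sum fell in mouse 9 (188449 to 140659), where Mdk rose, and it rose in mouse 10 (6820 to 21848), where Mdk fell. In SCC against CHR the fibroblast sum was higher in 3 of 6 mice, and Mdk in 5 of 6. The papilloma with the highest Mdk, that of mouse 9, had the highest fibroblast sum of the papillomas, and the carcinoma with the lowest Mdk, that of mouse 10, had the lowest fibroblast sum of the carcinomas. Across the 18 libraries, the Pearson correlation of log2 Mdk with the log2 fibroblast sum was 0.81, and 0.77 once the stage means were subtracted, as a description of libraries that share mice and dissection. Mdk per 1000 fibroblast marker reads was 0.275 to 0.462 in CHR, 0.280 to 4.31 in PAP and 0.305 to 1.07 in SCC, so that this ratio was not lower in PAP but higher there than in CHR in 5 of 6 mice. Of the 10 fibroblast genes, limma called 6 lower and 0 higher in PAP against CHR (28.7% of all genes lower), 1 higher and 0 lower in SCC against PAP (4.99% higher), and 2 lower and 0 higher in SCC against CHR (21.4% lower). Between the lesions, 7 were called higher without mouse 10, 4 with the mouse as a block, and 0 when any one of the other mice was left out. The part of fibroblast content in the Mdk result was not tested.

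**Figure D4:**
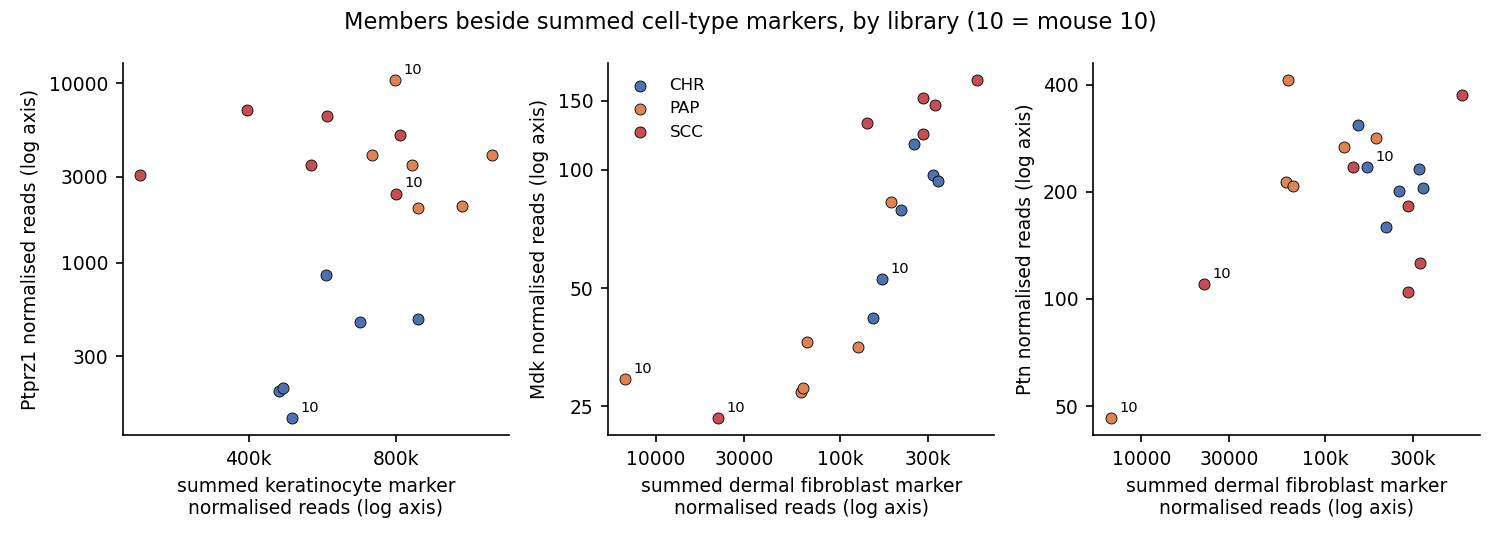
Normalised reads of Ptprz1 against summed keratinocyte markers, and of Mdk and Ptn against summed dermal fibroblast markers, with 1 point per library (all axes log; 10 marks the libraries of mouse 10). Mdk and the fibroblast sum correlated across libraries (Pearson 0.81 on log2 values), with exceptions. The papilloma of mouse 10 had the lowest fibroblast sum (6820) but not the lowest Mdk (29.4). The CHR points of Ptprz1 lie below both lesions, as its choice implies.

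For Ptn the same correlation was 0.52, and 0.65 with stage means subtracted. The papilloma of mouse 10 was the lowest of all libraries both for Ptn and for the fibroblast sum. Ptn per 1000 fibroblast marker reads was higher in PAP than in CHR in 6 of 6 mice, with medians of 0.773 and 3.31. The part of fibroblast content in the Ptn values was not tested.

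Ptprz1 was set beside keratinocyte markers (10 genes, among them Krt5, Krt14 and Trp63). Their sum was higher in PAP than in CHR in 5 of 6 mice but higher in SCC than in CHR in 1 of 6. By limma, 7 of the 10 passed as higher in PAP against CHR and Krt10 as lower (22.8% and 28.7% of all genes). In SCC against CHR, Dsg3, Trp63 and Krt14 passed as higher and Krt1 and Krt10 as lower (15.1% and 21.4% of all genes). Without mouse 3, 8, 9 or 10, 2 in place of 3 passed as higher. Krt1 went from a mean of 146652 in CHR to 34888 normalised reads in SCC, and Krt10 from 93643 to 37074. The SCC medians were lower, at 15227 for Krt1 (highest library 129811) and 9258 for Krt10 (highest library 171620). The lower SCC sum was thus not shared by every marker. Across the 18 libraries, the Pearson correlation of log2 Ptprz1 with the log2 keratinocyte sum was 0.21, and 0.12 with stage means subtracted. Ptprz1 per 1000 keratinocyte marker reads was 0.275 to 1.48 in CHR, 1.88 to 13.0 in PAP and 3.02 to 17.9 in SCC. The medians were 0.485, 3.61 and 8.90. That CHR did not overlap with the lesions in this ratio is inherited from the choice of Ptprz1, and the part of keratinocyte content was not tested. Schwann cells and their precursors, which in the nervous system are among the cells that express Ptprz1, were followed with 10 measured markers. The sum of these was 9210 to 10826 in CHR, 6087 to 13857 in PAP and 5382 to 8575 in SCC, and 1 of the markers was called higher and 6 lower in PAP (28.7% of all genes lower), and 0 higher and 6 lower in SCC (21.4% lower), against CHR. The single gene called higher, Erbb3, is also expressed by keratinocytes. Cdh19 was among the genes called lower and had at most 9 reads in PAP. The means of Mbp and Ngfr were higher in PAP (1565 and 152) than in CHR (1367 and 114), but neither was called. The marker sum was higher in PAP than in CHR in 3 of 6 mice. The part of Schwann cell content in the Ptprz1 values was not tested.

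Across the 18 libraries, the 5 genes most like Ptprz1, by Pearson correlation on log2(value + 1), were Pax9 (0.98), Rbl1 (0.95), Sox15 (0.94), Fam83d (0.94) and Knstrn (0.93). Pax9 and Sox15 encode transcription factors of squamous epithelia, Rbl1 the retinoblastoma-related protein p107, and Fam83d and Knstrn proteins of the mitotic spindle. Pax9 had 14.3 ± 12.7 normalised reads in CHR, 255 ± 167 in PAP and 283 ± 109 in SCC (SD, n = 6). Much of such a correlation is the shared step from CHR to the lesions, and with stage means subtracted Rbl1 (0.90) and Pax9 (0.87) stayed among the first 5, whereas Sox15, Fam83d and Knstrn dropped to between 0.64 and 0.67. The correlation of Ptprz1 with its ligands was −0.27 for Ptn and −0.03 for Mdk.

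**Figure D5:**
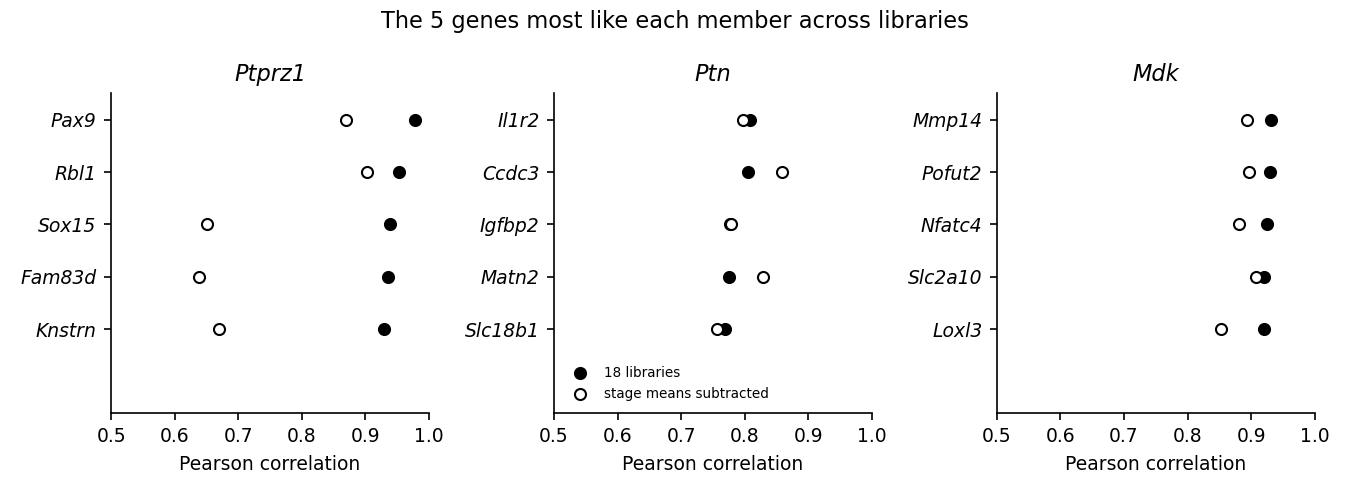
The 5 genes with the highest Pearson correlation with each member over 18 libraries (filled points), and the correlation of the same genes after the mean of each stage was subtracted (open points). For Ptprz1, Pax9 and Rbl1 stay at 0.87 and 0.90 while the other 3 fall to between 0.64 and 0.67; for Mdk all 5 stay at 0.85 or above.

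The genes most like Mdk were Mmp14 (0.93), Pofut2 (0.93), Nfatc4 (0.93), Slc2a10 (0.92) and Loxl3 (0.92). Mmp14 is a membrane-bound collagenase-type protease and Loxl3 a lysyl oxidase that cross-links matrix. They had the pattern of Mdk, with the lowest level in PAP, for example 491 ± 157 normalised reads of Loxl3 in CHR, 187 ± 208 in PAP and 1087 ± 769 in SCC. The genes most like Ptn were Il1r2 (0.81), Ccdc3 (0.80), Igfbp2 (0.78), Matn2 (0.78) and Slc18b1 (0.77), lower values than those for the other members. Ptn and Mdk had a correlation of 0.07 with each other.

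In PAP against CHR, 22.8% of all genes were called higher and 28.7% lower, shares from which so few neighbours cannot be set apart. None of the genes beside Ptprz1 on chromosome 6 was called higher in PAP. The nearest measured genes were Fam3c, Wnt16 and Cped1 on one side and Cadps2, Ndufa5 and Asb15 on the other, at distances of 210 kb to 1475 kb. In PAP against CHR, Fam3c, Cped1, Cadps2 and Asb15 were called lower (−1.04, −2.78, −0.82 and −0.45), and Wnt16 and Ndufa5 were not called (1.16 and 0.24). Beside Mdk, Chrm4 ended 1.12 kb away and Dgkz began 0.527 kb away, without overlap in this annotation. Strand use in counting was not given, and an effect of these neighbours on the Mdk count was not tested. The log2 differences of Chrm4 and Dgkz were 0.23 and −0.36 in PAP against CHR, where Dgkz was called lower (adjusted p = 0.0224 by limma). In SCC against PAP they were 0.10 and 0.06, and neither was called. Beside Ptn, Chrm2, Fam180a and Dgki were called lower in PAP (−0.86, −1.15 and −0.87), Akr1d1 was called higher (2.03), and Mtpn and Creb3l2 were not called.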

How the data were processed

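Libraries were grouped by the stage and mouse number in the sample titles. The authors aligned paired-end reads to mm10 (GRCm38) with MOSAIK, counted them per gene with HTSeq (versions, annotation release and strandedness not given in the sources used here), divided by scaling factors and applied a variance-stabilizing transformation. The deposited values are a score on its linear scale, on which 0 reads appear as 39. A scaling by batch medians is also named in the methods, and no batch was given for any library. The transformation was inverted (zero level 39.13), with size factors of 0.835 to 1.18. Of the values under 100, which were used to fit the inversion, 100% came out as whole reads exactly. Over all values the share was 99.7%, which high values reach by construction where the size factor is above 1. Of 14542 entries, 21 with a number in place of a symbol (at most 0.236% of a library) were left out. No 2 libraries shared more than 2.24% of values.

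Stages were compared on log2(value + 1) with limma 3.58.1 in R 4.3.3, fitting 1 coefficient per stage over 18 libraries and no covariate, with two-sided p values adjusted by Benjamini-Hochberg over 14521 genes (threshold 0.05). This scale understates changes of low genes. The fit was also run on simulated counts with the same dispersion for all genes and no mouse effect. That run does not check the fit at the spread of the members. Same-numbered libraries are of the same mouse per the labels. Their deviations from the stage means correlated between −0.24 and 0.51 over 18 pairs (median 0.10). Spread between mice is biological, but each mouse gave 1 piece per stage.

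The members, the gene lists and the markers were chosen with earlier results of these data known. Per list and comparison, the 2 called genes that rose most and the 2 that fell most were named, with other names where counts were small. For each member, the 5 most correlated genes and the 3 nearest measured genes on either side were named. Positions are of GENCODE M21, in which 99.3% of symbols had 1 position. Alternatives were the mouse as a block, other log scales, limma-voom on recovered reads, a minimum mean of 10 reads, a fit of only the groups compared, and leaving out each mouse. Ratios to marker sums were added after the data were seen.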

Additional observations from a re-analysis of the deposited data

Results flagged for a closer look

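In 9 groups (3 genes by 3 stages) looked at for a library far from the others, 2 values stood out, where chance alone flags about 1 in 20 groups. The papilloma of mouse 9 had 82.7 normalised reads of Mdk, and its gap to the nearest papilloma was 0.782 of the range of the group, above Dixon's critical value for 6 samples. The carcinoma of mouse 10 had 23.3 normalised reads of Mdk, with a gap of 0.796 of the range. The same libraries had the highest fibroblast marker sum of the papillomas (188449) and the lowest of the carcinomas (21848). The papilloma of mouse 10 fell just short of the same limit for Ptn (46.1 normalised reads, gap 0.624) and for Ptprz1 (10413, gap 0.589).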

How the results depend on the processing

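No result changed sign while called. Of the alternatives for the values and counts of the 3 comparisons, 123 were classed as unchanged, 6 as stronger and 15 as weaker. Most of the stronger and weaker ones concern SCC against PAP. Some values classed as unchanged turned sign without being called. Ptn in PAP against CHR was 0.03 without mouse 2 and 0.24 without mouse 10, beside −0.04. Ptprz1, which carries no test, was −0.06 without mouse 8 and −0.09 without mouse 9 in SCC against PAP, beside 0.22. With the mouse as a replicate block, Mdk in PAP against CHR gained the call (−0.52, adjusted p = 0.0372), 1430 genes in place of 810 were called in SCC against PAP, and between the lesions Nrcam, Ncam1, 4 other receptor phosphatases (Ptprc, Ptpro, Ptprd, Ptprm) and 2 chondroitin sulfate genes (Chst11, Csgalnact1) gained a call. In SCC against CHR Gpc2 and Chsy1 gained one, and in PAP against CHR Dse lost its call (adjusted p = 0.0652). The block changed no other call in the 5 lists of receptors, partners, substrates, phosphatases and chondroitin sulfate genes. In a fit of only the 2 groups compared, Mdk was called in PAP against CHR (−0.52, adjusted p = 0.0175) and not in SCC against PAP (0.86, 0.132), and 0 genes were called in SCC against PAP (2496 with an unadjusted p under 0.05). With limma-voom on recovered reads 0 genes were called there (3086 unadjusted), and Mdk was not called (1.54, adjusted p = 0.114), nor with log2 of normalised reads + 1 (1.52, 0.0510). The pooled spread of 3 groups is absent from the 2-group fit by construction, and for the rest the cause was not tested. Leaving out 1 mouse gave 0 to 2123 calls in SCC against PAP, and log2 differences of Mdk from −0.60 to −0.44 in PAP against CHR, from 0.74 to 1.06 in SCC against PAP and from 0.17 to 0.51 in SCC against CHR. Without mouse 2 and without mouse 9, 279 and 413 genes were called between the lesions. Of the genes and list counts named, 705 values kept their side, 80 lost and 12 gained it, and 7 values with no test moved. Low counts limit Mdk, where 26 reads stand behind the lowest value.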

Other observations

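Chondroitin sulfate is the sugar chain that Ptprz1 carries and that binds its ligands. Of the enzymes that build it, 19 of 20 were measured. In PAP against CHR 9 were called lower, 0 higher and 10 neither, where 28.7% of all genes were called lower and 22.8% higher. The median log2 difference was −0.44 beside 0.00 for all genes. Chst11, a sulfotransferase of the chain, fell by 1.69 on the log2 scale, from 658 ± 213 to 165 ± 101 normalised reads (SD, n = 6, adjusted p = 0.000711 by limma). Xylt1, which starts the chain on the core protein, fell by 1.12 (adjusted p = 0.000438). The summed dermal fibroblast markers were also lower in PAP in 6 of 6 mice, and their part was not tested. Between the lesions 0 of 19 were called in either direction by limma, where 4.99% of all genes were called higher and 0.592% lower. Of the 19, 6 had an unadjusted p under 0.05, and 0 were called by limma-voom. However, 6 were called higher without mouse 10 and 2 with the mouse as a block. In SCC against CHR 2 of 19 were called lower and 0 higher, where 21.4% and 15.1% of all genes were. The 2 called lower were Xylt1 (−0.91) and Csgalnact2 (−0.51), of which the latter lost its call without mouse 9 or 10. Without mouse 7, 5 genes in place of 9 were called lower in PAP.

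Of 20 other receptor-type phosphatases 15 were measured, of which 2 were called higher and 7 lower in PAP against CHR (22.8% and 28.7% of all genes), 0 in either direction between the lesions by limma (4.99% and 0.592%; 7 with an unadjusted p under 0.05, and 0 called by limma-voom), and 1 higher and 4 lower in SCC against CHR (15.1% and 21.4%). Without mouse 10, 5 were called higher between the lesions, and without mouse 3 or 9, 2 in place of 4 were called lower in SCC against CHR. Ptprf rose by 1.07 ± 0.29 (SE) in PAP. Ptprn, a phosphatase-like protein of secretory granules, rose by 0.92 ± 0.25 in PAP and 1.66 ± 0.25 in SCC on the log2(value + 1) scale. That scale understates changes of low genes. Ptprn had 11.5 ± 9.06 normalised reads in CHR, 59.1 ± 20.8 in PAP and 157 ± 108 in SCC (SD, n = 6). Ptpro fell by 2.72 in PAP and by 1.76 in SCC. Ptprc, the leukocyte antigen CD45, fell by 2.45 and 1.15 in the stages in which the summed macrophage markers were also lower than in CHR in 6 of 6 mice, and its SCC call was lost without mouse 2, 3, 8 or 9.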
